A study of Mus musculus with 6 samples.

Results

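The interleukin 1 system and inflammasome was followed through 9 genes, chosen by symbol: Il1a, Il1b and Il18 (ligands), Il1rn (antagonist), Il1r1, Il1r2 and Il1rap (receptor chains), and Nlrp3 and Casp1 (inflammasome). All 9 were found among the 20394 genes of the table. The table held 32953 CD45+ synovial cells sorted from C57BL/6 mice with antigen-induced arthritis, immunized with methylated bovine serum albumin in adjuvant, challenged in the knee and sampled at the peak of inflammation. All mice of both groups carried the arthritis. PBS vehicle was given to 2 samples and 300 μg PEPITEM, a peptide that limits leukocyte trafficking, to 4. The cells carry a library number from 1 to 6, and no label ties a number to a treatment. The 2 treatments were therefore not compared, and libraries are given as libraries of unknown treatment, with no test between them.

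Interleukin 1 alpha and interleukin 1 beta activate cells through the receptor Il1r1 with its accessory chain Il1rap. Il1rn encodes the antagonist that occupies the same receptor without signaling, and Il1r2 encodes a decoy that binds ligand without signaling. Nlrp3 is the sensor of an inflammasome in which caspase 1 (Casp1) cleaves the precursors of interleukin 1 beta and interleukin 18. Neutrophils and macrophages are well known sources of these cytokines in inflamed joints. Transcripts do not show how much cytokine was cleaved or released.

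The sequences before the starts of Il1b, Il1r2 and Nlrp3 are shown because these members were all high in mature neutrophil-like cells. They are the 250 bases before a start annotated in RefSeq on GRCm38.p6, written 5′ to 3′ on the strand of the gene, with matches to the searched motifs in capitals.
Il1b, chr2:129371140-129371389, minus strand: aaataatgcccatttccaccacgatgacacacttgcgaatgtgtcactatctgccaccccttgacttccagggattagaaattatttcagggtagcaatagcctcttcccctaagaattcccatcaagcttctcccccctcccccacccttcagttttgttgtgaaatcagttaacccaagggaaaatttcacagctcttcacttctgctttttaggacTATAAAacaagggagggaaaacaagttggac
Il1r2, chr1:40085843-40086092, plus strand: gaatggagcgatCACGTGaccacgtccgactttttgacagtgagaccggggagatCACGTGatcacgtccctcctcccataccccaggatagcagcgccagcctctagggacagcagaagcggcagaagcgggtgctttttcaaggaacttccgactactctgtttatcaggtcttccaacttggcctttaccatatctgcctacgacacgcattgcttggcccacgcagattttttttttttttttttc
Nlrp3, chr11:59542436-59542685, plus strand: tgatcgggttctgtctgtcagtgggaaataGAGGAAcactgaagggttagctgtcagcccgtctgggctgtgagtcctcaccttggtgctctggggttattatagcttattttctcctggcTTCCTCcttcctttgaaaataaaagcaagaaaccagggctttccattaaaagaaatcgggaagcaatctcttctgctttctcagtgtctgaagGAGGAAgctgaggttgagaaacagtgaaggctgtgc
Windows that reach 50 bases past the start were searched on both strands for TATAAA (the TATA box), TGANTCA (an AP-1 motif), TTGCNNAA (a C/EBP motif), CACGTG (an E-box) and GAGGAA (a PU.1 motif). Il1b held TATAAA 31 bases before its start, a match present in 13.6% of the 32851 windows of the table. Il1r2 held CACGTG at 2 places, 238 and 195 bases before its start, and 7.15% of windows held it. Nlrp3 held GAGGAA at 3 places before this start, and 28.3% of windows held it. The window of the other Nlrp3 start held none of them. Other members held these motifs too: TATAAA at Il18, Il1a and Il1rn, CACGTG at Casp1, and GAGGAA at Casp1 and Il1a. TGANTCA was found at Il1a and Il1rn (7.81% of windows), and TTGCNNAA at Il1r1 alone among the members (10.8%). The matches are a description of letters only. In the annotation, Il1b lies at chr2:129364570-129371139, Il1r2 at chr1:40074079-40125231 and Nlrp3 at chr11:59541568-59566956. These spans are from GENCODE, and the windows shown for Il1r2 and Nlrp3 lie inside them, since the spans begin at an earlier start. Il1b overlaps the antisense gene Il1bos on the opposite strand. Il1r2 overlaps Gm16894 on the opposite strand and Gm37347 on its own strand, and Il1r1 overlaps Gm38070 on its own strand, so that some UMIs there could be counted for either gene or for none.

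The cells fell into 34 clusters, of which 31 were given 1 of 19 class names from marker genes, with the 9 members and their pathway genes kept out of the clustering. The remaining 3 clusters, 4.24% of cells, stayed unnamed. Precursor classes were present: B cell precursor-like cells made up 8.34% of cells, neutrophil precursor-like 3.44% and granulocyte precursor-like 3.38%. No label gives the tissue of the digested joint that a cell came from, so site and maturation stage cannot be told apart. Libraries held 47273569 to 123367661 unique molecular identifiers (UMIs, counted molecules). Library composition varied: neutrophil-like cells of all stages made up 10.8% of cells in library 3 and 44.4% in library 5, and inflammatory macrophage-like cells 34.1% in library 3 and 6.80% in library 5. Levels are UMIs of a gene scaled to the total of the class, as CPM. Transcripts of neutrophil marker genes were also found in other classes. Over the whole list of 25 mature and immature neutrophil markers, the summed level in the libraries was 44636 to 53822 CPM in mature neutrophil-like cells, 11778 to 31357 in inflammatory macrophage-like, 9150 to 27564 in resident macrophage-like, 3311 to 4825 in monocyte-like and 113 to 1369 in B cell-like cells. Nonclassical monocyte-like cells had 20826 to 44471 CPM over 5 libraries. Outside the neutrophil-like classes, only basophil-like cells had a higher pooled level. All 25 markers had UMIs in each of these classes. The list holds Hdc, which was also a basophil marker here, so not every marker is specific to neutrophils. In monocyte-like cells Stfa2l1 stood at 0.146%, and Cxcr2 and Retnlg at 0.673%, of their mature neutrophil-like level. How much of each sum was neutrophil RNA was not tested. Levels of the members are therefore also given for cells with no UMI of the neutrophil genes Retnlg, Stfa2l1 and Cxcr2, a restriction chosen after the data were seen.

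Il1b was the most abundant member, with 716070 UMIs and at least 1 UMI in 55.1% of cells. It was highest in mature neutrophil-like cells, at 8326 CPM. The libraries there gave 7158 CPM at the lowest, 8196 at the median and 9901 at the highest. Immature neutrophil-like cells had 1152 CPM, with libraries from 907 to 1424, so the 2 stages did not overlap. After each cell was thinned to 2000 UMIs, 98.5% of mature and 51.4% of immature neutrophil-like cells had an Il1b UMI, against 2.38% of B cell-like cells, which should lack the gene. Unthinned, these shares were 99.2%, 63.0% and 5.52%, at median depths of 4362, 9943 and 5641 UMIs. Among the larger classes, type 2 dendritic cell-like cells followed with 2712 CPM (2081 to 3408 over the libraries), inflammatory macrophage-like cells with 2404 (1803 to 3214), and nonclassical monocyte-like cells with 2150 (1871 to 3038 over 5 libraries). These last 3 ranges overlapped one another. In nonclassical monocyte-like cells Cxcr2 stood at 20.9% and Retnlg at 35.7% of the mature neutrophil-like level. Resident macrophage-like cells had 1205 CPM and monocyte-like cells 1028. In 53 basophil-like cells Il1b stood at 7657 CPM, but only library 2 held 20 or more of them. Stfa2l1 stood at 11.6% and Cxcr2 at 20.7% of the mature neutrophil-like level in these cells, and the 20 of them with no UMI of the 3 neutrophil genes had 11800 CPM of Il1b.

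**Figure D1:**
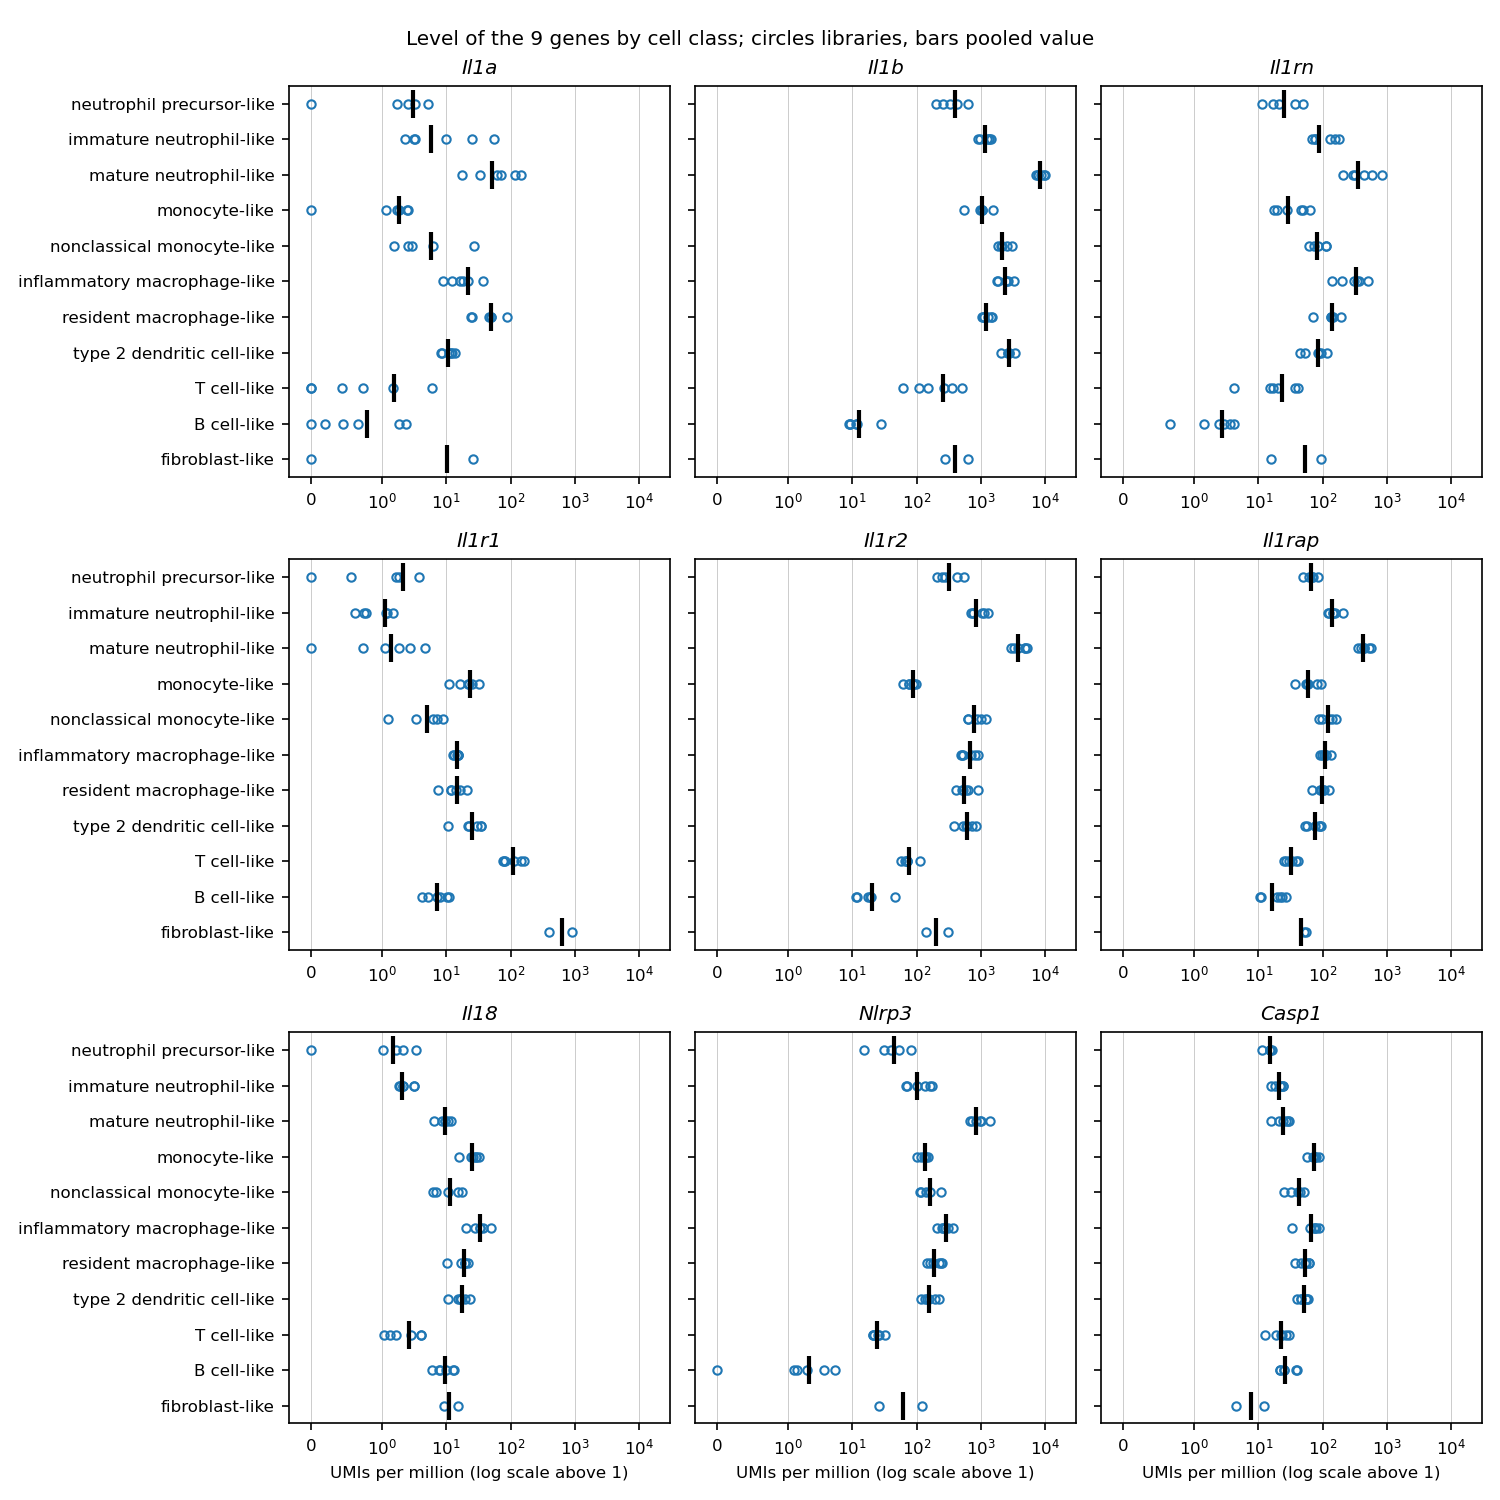
Level of each of the 9 genes (CPM, log scale above 1) in 11 cell classes. Circles are libraries with at least 20 cells and black bars the value pooled over all cells. Il1b, Il1r2, Il1rap and Nlrp3 are highest in mature neutrophil-like cells among these classes, Il1r1 in fibroblast-like cells, and Casp1 stays at or under 72.2 CPM pooled.

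Neutrophil-like cells of all stages held 36.6% of all Il1b UMIs, with 8.93% in library 3 at the lowest, 37.3% at the median and 49.6% in library 6 at the highest. They made up 32.8% of cells and 25.2% of all UMIs. Inflammatory macrophage-like cells held 32.9% of Il1b UMIs, from 16.3% in library 6 to 65.8% in library 3. Without library 3 the neutrophil-like share was 40.7%. It was 64.1% when cells were gated by markers one by one, which put 7760 instead of 4201 cells in the mature neutrophil gate. Whether these included cells of other classes with neutrophil transcripts was not tested. The share was 58.2% to 62.6% when cells of other classes with neutrophil transcripts were left out in 3 ways, which raises it by construction. Single cells also differed: in mature neutrophil-like cells the middle cell had 78.3 Il1b UMIs per 10000 and the 10th and 90th percentiles were 23.8 and 167, while in resident macrophage-like cells the middle cell had 0 and the 90th percentile was 34.7.

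Il1a was far lower, with 6349 UMIs in all. Mature neutrophil-like cells had 51.8 CPM and resident macrophage-like cells 50.4. Library values ran from 17.5 to 146 CPM in the former and from 23.9 to 89.0 in the latter, so the ranges overlapped and the order turned when library 1, 2, 3 or 4 was left out or cells were gated by markers one by one. Among cells free of the 3 neutrophil genes, resident macrophage-like cells kept 48.7 CPM of Il1a (1608 cells). Over all their cells, resident macrophage-like cells held 4.18 Il1a UMIs per 100 Il1b UMIs, with libraries from 1.66 to 6.07. The same ratio was 0.622 in mature neutrophil-like (0.245 to 1.90, which overlapped) and 0.179 in monocyte-like cells (0 to 0.316). Among cells free of the 3 genes it was 14.1 in resident macrophage-like and 0.159 in monocyte-like cells. Inflammatory macrophage-like cells had 21.4 CPM of Il1a and monocyte-like cells 1.84 (0 to 2.50, near the floor), with ranges that did not overlap. Il1a was above 5 CPM only in the former class of this pair, so the lack of overlap is no support.

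Il18, whose product induces interferon gamma, had another distribution. It was highest in inflammatory macrophage-like cells at 33.4 CPM (20.04 to 49.2) and in monocyte-like cells at 24.8 (16.0 to 32.8), ranges that overlapped. Mature neutrophil-like cells had 9.45 CPM. Inflammatory macrophage-like cells held 48.8% of Il18 UMIs and neutrophil-like cells 5.74%. B cell-like cells had 9.61 CPM, close to the mature neutrophil-like level.

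**Figure D2:**
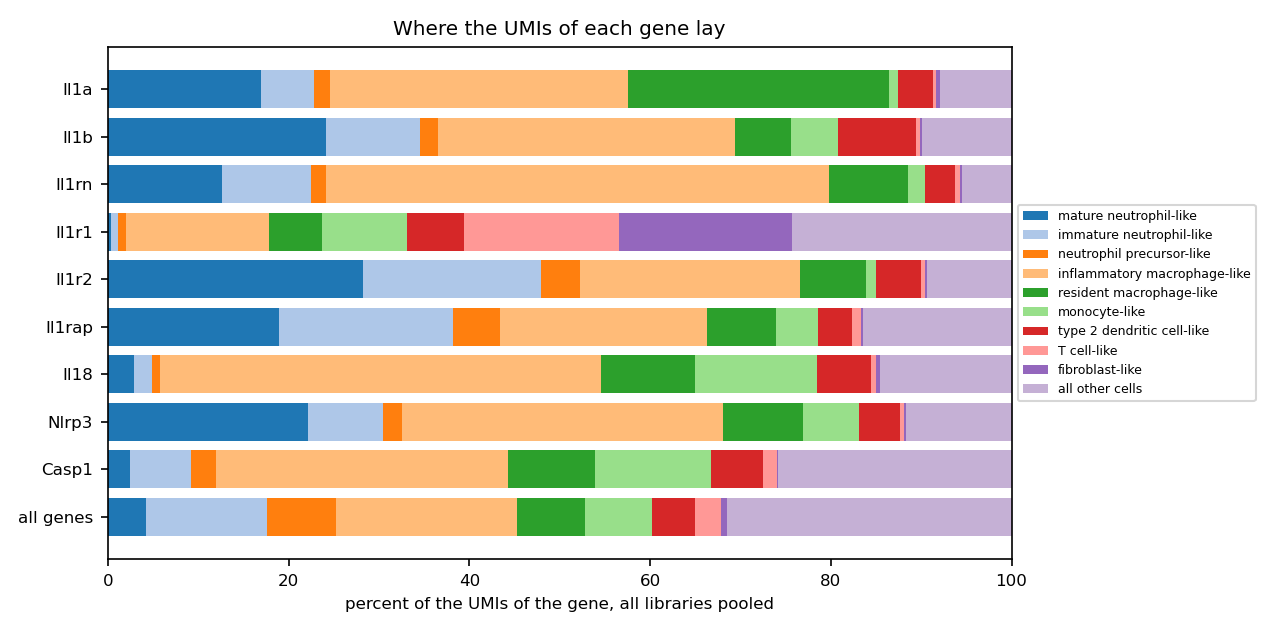
Percent of the UMIs of each gene that lay in each class, pooled over all libraries, with the same split for all genes at the bottom. Neutrophil-like classes hold 52.3% of Il1r2 UMIs and 36.6% of Il1b UMIs, and inflammatory macrophage-like cells 55.7% of Il1rn UMIs.

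Il1rn, the antagonist, was shared between macrophages and neutrophils. Inflammatory macrophage-like cells held 55.7% of its UMIs, from 28.8% in library 6 to 75.6% in library 3. Neutrophil-like cells held 24.1%, from 8.65% in library 3 to 49.7% in library 6, where they held more of it than inflammatory macrophage-like cells. Pooled over the libraries, the Il1rn level was 325 CPM in inflammatory macrophage-like cells (140 to 498). It was 349 in mature neutrophil-like cells (206 to 838), so these classes overlapped. Monocyte-like cells had 29.1 CPM (17.7 to 62.5), which did not overlap with inflammatory macrophage-like cells. Relative to ligand, inflammatory macrophage-like cells held 13.5 Il1rn UMIs per 100 Il1b UMIs, with 7.74 at the lowest library, 12.3 at the median and 20.4 at the highest. The same ratio was 11.4 in resident macrophage-like (6.29 to 14.97 over the libraries), 7.51 in immature neutrophil-like (6.01 to 13.2) and 4.19 in mature neutrophil-like cells (2.88 to 10.9). It was 3.09 in type 2 dendritic cell-like (1.90 to 4.22) and 2.84 in monocyte-like cells (1.69 to 6.53). The range of inflammatory macrophage-like cells overlapped with those of resident macrophage-like and these neutrophil-like cells, and not with those of the last pair. Immature neutrophil-like clusters differed: one of 1914 cells had 25.5 (18.5 to 53.6), above the pooled macrophage values, and the others 5.05 to 10.2. With cells gated by markers one by one the inflammatory macrophage ratio was 0.308 Il1rn UMIs per Il1b UMI, over 165 cells. Between the 2 inflammatory macrophage-like clusters it was 18.2 in the Cxcl9-led and 11.1 in the Arg1-led cluster, with overlapping libraries. In cells without the 3 neutrophil genes the ratio was 18.8 in inflammatory and 25.8 in resident macrophage-like cells. Those inflammatory macrophage-like cells were 2018 Cxcl9-led and 94 Arg1-led cells, with ratios of 19.2 and 14.1, so their mix of clusters differed from the whole class.

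**Figure D3:**
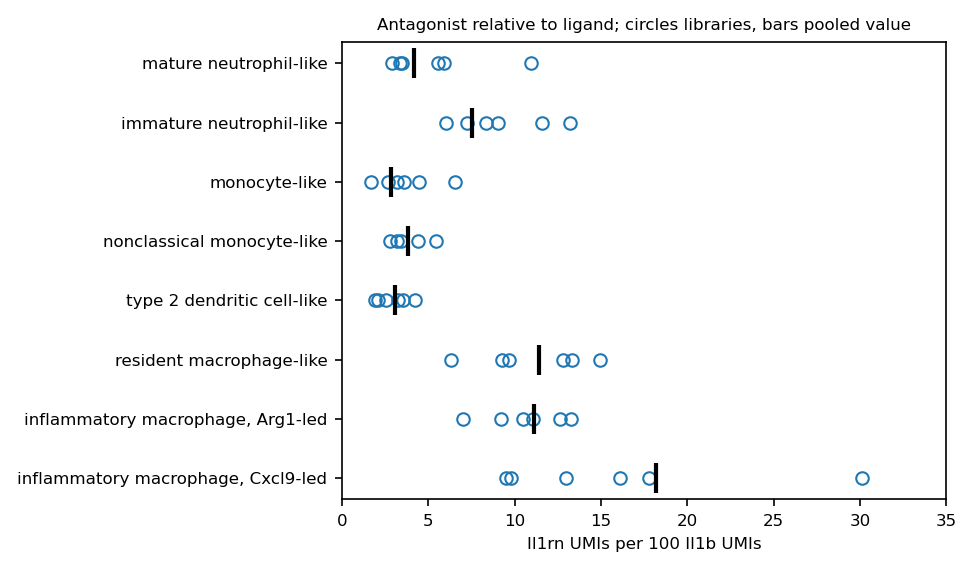
Il1rn UMIs per 100 Il1b UMIs in 8 myeloid classes or clusters. Circles are libraries with at least 20 cells and bars pooled values. The macrophage classes lie at 11.1 to 18.2 pooled, immature and mature neutrophil-like cells at 7.51 and 4.19, and the monocyte and dendritic cell classes at 2.84 to 3.81.

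Il1r2, the decoy receptor, was the member most concentrated in neutrophil-like cells, which held 52.3% of its UMIs (18.1% in the lowest library, 69.5% in the highest). Mature neutrophil-like cells had 3725 CPM, with libraries at 2964, 4283 and 5115 for lowest, median and highest. Immature neutrophil-like cells had 829 CPM (700 to 1276), below every library of the mature stage. Il1rap, the accessory chain, went the same way at a lower level, 426 against 138 CPM, again without overlap. Il1r1, the signaling receptor, was near 0 in neutrophil-like cells, at 1.40 CPM in mature and 1.12 in immature cells.

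Il1r1 was highest in fibroblast-like cells, at 631 CPM in 161 cells, with 401 and 908 in the 2 libraries that held at least 20 of them, although the sort was for CD45, a leukocyte marker. T cell-like cells followed at 108 CPM (77.3 to 160), and these 2 classes did not overlap. The T cell-like signal was uneven. Cells with 3 or more of 11 gamma-delta T cell markers had 503 CPM (193 cells, exact Poisson 95% interval 474 to 533), and cells with none had 7.68 CPM (648 cells, 5.74 to 10.1). These intervals cover counting error only, and this split was chosen after the values were seen. Cells with a Foxp3 UMI, a regulatory T cell transcript, had 21.0 CPM.

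Nlrp3 was high where Il1b was high. Mature neutrophil-like cells had 835 CPM (669 to 1374) and immature cells 100 (67.4 to 174), without overlap. Inflammatory macrophage-like cells had 284 CPM, resident macrophage-like cells 189, nonclassical monocyte-like cells 160, type 2 dendritic cell-like cells 157 and monocyte-like cells 133. The 53 basophil-like cells had 1240 CPM, above the pooled mature neutrophil-like level, with 989 CPM in library 2, the only library with 20 or more of them and within the range of the mature neutrophil-like libraries. Casp1 lay between 7.62 CPM in fibroblast-like and 72.2 CPM in monocyte-like cells. It was 66.9 CPM in inflammatory macrophage-like, 26.3 in B cell-like and 24.3 in mature neutrophil-like cells. Across the 19 classes the log2(CPM + 1) profile of Nlrp3 correlated with that of Il1b at Pearson r = 0.98. That of Casp1 correlated with Il1b at 0.083. Both are descriptions over classes from the same libraries, and the part of neutrophil transcripts in other classes was not tested. After thinning to 2000 UMIs, 63.4% of Il1b-positive mature neutrophil-like cells had an Nlrp3 UMI and 4.51% a Casp1 UMI. In the Il1b-negative ones these shares were 53.3% and 3.33%. Since 4017 of 4077 such cells were Il1b-positive, the first shares are close to those of the whole class.

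Of the 8 members above 5 CPM in either class, 6 were higher in mature than in immature neutrophil-like cells. These were Il1b, Il1rn, Il1r2, Il1rap, Il18 and Nlrp3, with library ranges that did not overlap. Il18 passed 5 CPM only through the mature class, at 9.45 against 2.04 CPM, so its call is no support. Among all 6959 genes tested, 27.2% were higher in that way. The shares over all genes were not matched to the levels of the members. Il1a and Casp1 overlapped. Against monocyte-like cells, 5 of 9 members were higher in inflammatory macrophage-like cells (Il1a, Il1b, Il1rn, Il1r2 and Nlrp3), where 14.8% of all genes were. Il1a passed 5 CPM only through the inflammatory macrophage-like class, at 21.4 against 1.84 CPM, so its call is no support. Of inflammatory macrophage-like cells, 2018 of 2402 Cxcl9-led and 94 of 1910 Arg1-led cells had no UMI of the 3 neutrophil genes. The mix of clusters thus differed, and its part in the values was not tested. Although the 94 Arg1-led cells stayed above monocyte-like cells in Il1r2, as given below, its higher pooled level did not hold in the cells kept. It was 61.5 CPM in inflammatory macrophage-like and 78.0 in monocyte-like cells there. With no UMI of 7 neutrophil genes the values were 56.6 and 70.9, and with S100a8 and S100a9 under 0.2% of UMIs 95.5 and 74.1, so the order of Il1r2 turned with the restriction. The pooled levels of the other 4 were higher among cells without the 3 genes too, where library ranges were not computed: Il1b at 1758 against 1020 CPM, Il1rn at 330 against 29.2, Nlrp3 at 190 against 129 and Il1a at 14.6 against 1.62. Against resident macrophage-like cells, 1 of 9 was higher, Il1b, where 7.73% of all genes were. No member was lower without overlap in any of these 3 comparisons, where 19.2%, 20.2% and 19.4% of genes were. Some members with overlapping ranges still went one way in each library. Il1rn, Il18 and Nlrp3 were higher in inflammatory than in resident macrophage-like cells in 6 of 6 libraries, and Il1a in 0 of 6. Il1rap against monocyte-like cells and Il1a in mature against immature neutrophil-like cells were higher in 6 of 6. The other members that overlapped were higher in 1 to 5. The share of all genes that went one way in each library was not computed.

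Within the neutrophil-like cells the members varied with the secondary granule transcripts Ltf, Ngp, Camp and Lcn2, which are made early in maturation. The immature cluster richest in them, at 108884 CPM summed, had 148 CPM of Il1b, 391 of Il1r2 and 12.96 of Nlrp3. The mature cluster poorest in them, at 2437 CPM, had 9949, 4483 and 1037. One immature cluster of 570 cells departed from this order, with 75117 CPM of granule transcripts and 2396 CPM of Il1b, above the 841 CPM of a cluster with 63034. As a percent of the mature neutrophil-like level, it also exceeded an immature cluster with 16999.5 CPM of granule transcripts for Il1r2 (37.8 against 36.3). The same held for Il1rn (45.0 against 39.8) and Nlrp3 (30.3 against 27.1). The precursor cluster, with 99651 CPM of granule transcripts, departed from this order for Il1r2, at 321 CPM. For Il1rn it had 25.2 against 37.7 CPM in the cluster richest in them, and for Il1rap 15.4% against 19.4% of the mature neutrophil-like level. Casp1 stayed between 15.3 and 25.9 CPM over the same 7 clusters.

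**Figure D4:**
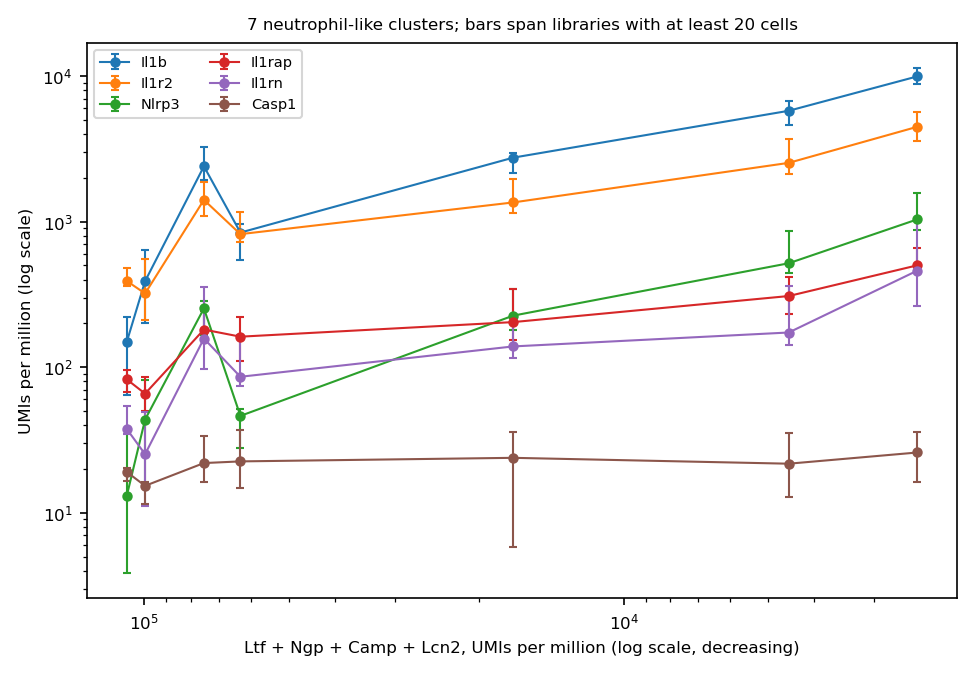
Level of 6 members in the 7 neutrophil-like clusters (CPM, log scale) against the summed level of 4 secondary granule genes (log scale, decreasing to the right). Bars span the libraries with at least 20 cells. Il1b goes from 148 to 9949 CPM between the ends, and Casp1 stays between 15.3 and 25.9.

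Outside neutrophils, part of the signal moved with neutrophil transcripts. In resident macrophage-like cells Stfa2l1 stood at 10.98% and Cxcr2 at 12.97% of their mature neutrophil-like level. In the 1608 of 2476 such cells with none of the 3 neutrophil genes, Il1r2 was 22.1 CPM instead of 544, Il1b 345 instead of 1205, and Il1a 48.7 instead of 50.4. In the Arg1-led inflammatory macrophage-like cluster, 94 of 1910 cells were free of them. There Il1r2 was 359 CPM instead of 1105, while Il1b was 3486 instead of 2878 and Il1rn 493 instead of 320. In the Cxcl9-led cluster, with 2018 of 2402 cells free, Il1b was 1679 instead of 1823 and Il1r2 47.8 instead of 160. Type 2 dendritic cell-like cells kept most of both, 2390 CPM of Il1b and 479 of Il1r2. Fibroblast-like cells kept Il1r1, at 741 CPM, and lost most Il1b, 52.0 instead of 395. The other restrictions that were also tried, S100a8 and S100a9 under 0.2% of UMIs and no UMI of 7 neutrophil genes, moved Il1r2 in the same direction in resident macrophage-like cells, to 57.0 and 20.7 CPM. The cells kept were somewhat shallower, with a median of 11437 UMIs instead of 12618 in resident macrophage-like cells. The part of neutrophil transcripts in the levels of the other classes was not tested.

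**Figure D5:**
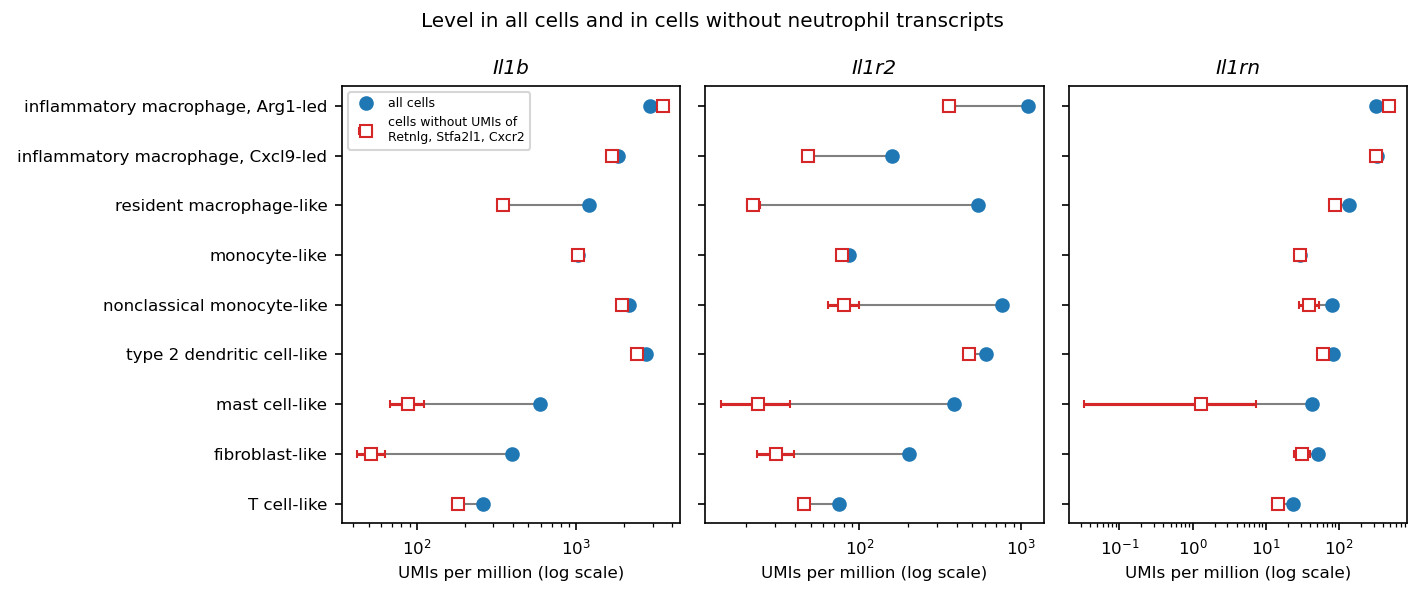
Level of Il1b, Il1r2 and Il1rn (CPM, log scale) in all cells of a class (filled circles) and in its cells without UMIs of Retnlg, Stfa2l1 and Cxcr2 (open squares, with exact Poisson 95% intervals). Il1r2 in resident macrophage-like cells moves from 544 to 22.1, and Il1b in monocyte-like cells from 1028 to 1020.

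Within mature neutrophil-like cells, the members that differed most between libraries were Il1a and Il1rn. The highest library had 8.32 times the Il1a level of the lowest and 4.07 times the Il1rn level, where 1910 and 663 genes of similar level had a median of 1.50 and 1.36. Both were highest in library 3 and lowest in library 6. Il1b differed 1.38 times, beside a median of 1.40 for genes of similar level.

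The wider pathway was read from a list of 54 symbols, of which 47 were in the table. The list held older and newer names of the same genes, such as Il1f9 and Il36g. A symbol missing from the table is therefore not always a missing gene. Of the 5 other family ligands and antagonists found, Il1f9 (interleukin 36 gamma) was the highest, at 309 CPM in mature neutrophil-like cells, and Il18bp, a soluble interleukin 18 antagonist, reached 35.8 in inflammatory macrophage-like cells. Of the 7 other receptors, Il1rl1, the interleukin 33 receptor, reached 1454 CPM in mast cell-like and Il18rap 557 in basophil-like cells. Of 11 signaling genes, Peli1 reached 687 CPM in innate lymphoid cell type 2-like and Irak2 646 in mature neutrophil-like cells. Of 14 genes listed as sensors, Pyhin1 reached 214 CPM in B cell precursor-like and Ifi203 175 in B cell-like cells. Both are listed by gene family, and neither is an established inflammasome sensor, so these levels do not show where sensors are highest. Of 10 other inflammasome genes (adaptor, caspases, gasdermins, and regulators and channels such as Nek7 and P2rx7), Txnip reached 511 CPM in mast cell-like and Pycard, the adaptor that links Nlrp3 to caspase 1, 354 in monocyte-like cells. Pycard was at 14.4 CPM in mature neutrophil-like cells, where Nlrp3 was high. Among the 47 genes, Il1f9, Irak2 and the sensor Nlrp12 (119 CPM, named after its value was seen) were highest in mature neutrophil-like cells. So were Il1f6 and Il1f8, but at 0.193 CPM or less, too low to rank classes. The share of all genes that were highest there is not given, so their number is not read as many or few.

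By profile over the 19 classes, the genes most like Il1b were Nlrp3, Ccl6 and Ccr1 (r = 0.98, 0.97 and 0.95), and those most like Il1r2 were Slc7a11, Cd300ld and Gm5483 (0.98, 0.97 and 0.97). Il1rn was most like Tgm2, Cd300ld and Il1r2 (0.95, 0.94 and 0.93), and Il1rap most like Slc7a11, Sepn1 and Sycp2 (0.96 each). For Nlrp3 they were Il1b, Ccl6 and Emilin2 (0.98, 0.97 and 0.96). Likeness was lower for Il1a (Tfe3, Cd9 and Cdc42bpg, at most 0.87), Il18 (Bri3, Fuca1 and Atp6ap1, at most 0.90), Casp1 (Sh3bp1, Atmin and Psenen, at most 0.84) and Il1r1 (Lrrc32, Arhgap29 and Cdo1, at most 0.82). These are correlations over 19 classes among 10278 genes, which share libraries and depth. They use all cells of each class, also those with neutrophil transcripts outside the neutrophil-like classes. The part of such transcripts in the correlations was not tested.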

How the data were processed

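Single cells were measured with the Chromium 3′ kit version 3.1. Per the labels and the methods of the study, the authors aligned reads to mm10 with Cell Ranger 7, corrected ambient RNA with SoupX, removed doublets with DoubletFinder and filtered cells with Seurat. The authors deposited whole UMI counts per gene and cell, not scaled for depth, in one table. It stores 1724738 zeros, and 2415 of them belong to Il1b. No further cell filter or doublet caller was applied. The 6 library numbers shared 138 barcode sequences. Library medians were 9923 to 14001 UMIs per cell. Intervals cover counting error only.

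The members, gene lists and markers were chosen with earlier results of these data known. Cells were brought to a common total of 10000 and put on a log scale, and 2000 variable genes, 30 principal components and 15 neighbors were clustered by the Leiden method (resolution 1.0, scanpy 1.11.5, igraph 0.11.9, Python 3.11.15). A cluster took the class with most markers among its 10, then 30, leading genes by fold, and at least 4 markers had to be detected in 25% of its cells. The minimum of 4 was raised from 3, and a cluster led by more than 4 muscle genes was left unnamed, both after the clusters had been seen. The first rule would have named a cluster of 337 cells plasma cell-like and one of 469 cells monocyte-like. Library ranges use libraries with at least 20 cells of a class. Classes were called apart where these ranges did not overlap, among genes above 5 CPM in either class. Shares of positive cells were also computed at 2000 and 5000 UMIs per cell. Named genes are the 9 members, the 2 highest of each pathway role, and the 3 genes at 20 CPM or more with the most similar profile. Only the rule for ranges that do not overlap and the thinning formula were tested on simulated counts. The simulated libraries differed by counting error alone, unlike the real ones. Naming, ratios, shares and restrictions were not tested in this way. Positions come from GENCODE vM21 (GRCm38), and all 9 members matched the RefSeq promoter table. A comparison of PBS and PEPITEM was left out, since library numbers could not be tied to samples.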

Additional observations from a re-analysis of the deposited data

How the results depend on the processing

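The neutrophil-like share of Il1b UMIs was 36.6%, the Il1b level of mature neutrophil-like cells 8326 CPM and the Il1rn to Il1b ratio of inflammatory macrophage-like cells 0.135. At Leiden resolution 0.5 the share was 34.5% and the level 8391 CPM, and at resolution 2.0 the level was 8267 CPM and the ratio 0.131. With members and pathway genes among the variable genes, the share was 36.9% and the level 8512 CPM. With only cells of at least 2000 UMIs the share was 36.4%. As medians over the libraries the values were 37.3%, 8196 CPM and 0.123. Leaving out each library in turn gave shares of 32.3% to 40.7%, levels of 8114 to 8739 CPM and ratios of 0.118 to 0.143. The marker gate per cell moved all of them by more: 64.1%, 4059 CPM and 0.308, with 165 cells left in the inflammatory macrophage gate instead of 4312. The following were chosen after seeing the data. Keeping, outside neutrophil-like classes, only cells without UMIs of Retnlg, Stfa2l1 and Cxcr2 gave a share of 60.3% and a ratio of 0.188. With S100a8 and S100a9 under 0.2% of UMIs these were 58.2% and 0.183, and with no UMI of 7 neutrophil genes 62.6% and 0.190. The share rises under these by construction, since cells of other classes are dropped. The mix of inflammatory macrophage-like clusters also differed: of the 2112 cells kept under the first, 2018 were Cxcl9-led and 94 Arg1-led. Naming clusters from 3 detected markers left the 3 values as they were. The class with the highest level was the same under all 15 alternatives for Il1r1, Il1r2 and Il1rap, and under 14 for Il1b. It was the same under 13 for Il1rn and Il18, 12 for Casp1 and 10 for Il1a. Il18 was highest in monocyte-like cells at resolution 2.0 and in type 1 dendritic cells under the marker gate. Casp1 was highest in inflammatory macrophage-like cells under the restrictions on neutrophil transcripts. For Nlrp3, highest in basophil-like cells, the class was the same under 6. Under the other 9 basophil-like cells were not ranked, having under 50 cells left or no cluster of their own (resolution 0.5). None of the 15 thus placed them lower. The same 9 left them unranked for Il1b, where they were next to mature neutrophil-like cells in the main setting. As given above, the basophil-like cells without the 3 neutrophil genes, too few to be ranked, stood above the mature neutrophil-like level of Il1b. The alternative that changed for Il1b, the marker gate, put basophils first, at 4073 against 4059 CPM. The 3 restrictions and the naming from 3 markers left the mature neutrophil-like levels as they were. For members highest there, these settings could change only the levels of other classes. Counting stored zeros as detected raised the Il1b-positive share of B cell-like cells to 15.8% unthinned. No paired analysis was possible because the libraries could not be tied to samples and no result comes from a test.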
